A study of Homo sapiens with 6 samples.

Results

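The genes described here encode 10 proteins that detect nucleic acids inside the cell or pass on and restrain that signal: DDX58, IFIH1, DHX58, MAVS, TLR3, MB21D1, TMEM173, EIF2AK2, IFI16 and ADAR. They were taken by symbol from a table of 36517 genes, and all 10 symbols were present. MB21D1 and TMEM173 are older symbols of CGAS and STING1, and DDX58 is now named RIGI. The mRNA of MDA-MB-453, a line of human breast cancer cells, was sequenced at day 3 in 6 libraries. In 3 of them (control) the cells had received a lentivirus with the negative control hairpin shNC, and in the other 3 (shtRF) a lentivirus with shtRF-1-Ser, a hairpin against tRF-1-Ser. The fragment tRF-1-Ser, derived from the 3′ trailer of a serine tRNA precursor, cannot be read from mRNA libraries, so the knockdown itself could not be checked here. Every library came from cells exposed to lentivirus. The study's methods call the replicates biological, but whether they were separate transductions is not stated, so the p-values measure the spread between these samples, which may be technical.

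Nucleic acid sensing starts when RNA or DNA turns up in a form or a compartment where a healthy cell keeps none. RIG-I (DDX58) and MDA5 (IFIH1) bind viral or otherwise aberrant RNA in the cytosol and signal through MAVS on the mitochondrial surface, cGAS (MB21D1) binds DNA and makes a cyclic dinucleotide that activates STING (TMEM173), and both routes lead to the kinase TBK1, the factor IRF3 and type I interferon. Interferon in turn induces many of the sensor genes themselves. The set is not uniform by place or role, since TLR3 reads RNA in endosomes, IFI16 is found largely in the nucleus, MAVS and TMEM173 are adaptors, and ADAR edits RNA and thereby keeps the cell's own transcripts from being sensed.

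The libraries held between 63541413 and 78917459 counts, and 19628 genes passed the filter on low counts and were tested. The 7 luminal breast markers given here, among them EPCAM, KRT8, GATA3 and ERBB2, lay between 31.0 and 484 RPKM (counts per exonic length and library total) in the single libraries. Of 7 markers of leukocytes, endothelium and fibroblasts, PTPRC, CD3E, PECAM1 and DCN had at most 10 counts in any library. The summed level of these 7 was 33.9 to 40.3 CPM (counts in each 1000000, after TMM scaling) in control and 27.0 to 29.4 CPM in shtRF, with COL1A1 lower and CD68 higher in shtRF. CD68 shares 85.8% of its exonic bases with RP11-186B7.4, so its reads cannot be assigned with certainty. The part of these other cell types in the results below was not tested. These are bulk libraries, in which fewer cells expressing a gene and less RNA per cell cannot be told apart.

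Of the 10 genes, 9 were tested and 5 fell in shtRF cells: IFI16, EIF2AK2, ADAR, IFIH1 and DDX58. IFI16 would not have passed the filter on its shtRF libraries alone. No tested member rose. Over all tested genes 18.9% were lower and 20.6% higher at an adjusted p under 0.05 in edgeR's quasi-likelihood test. The members were chosen with earlier results of these data known, so setting them beside these shares is a description only. At an unadjusted p under 0.05 the same counts were found, 5 lower and 0 higher, and DESeq2, edgeR's exact test and limma also placed 0 members higher. The log2 fold change, always shtRF minus control, was below 0 in 8 of the 9, with a median of -0.41 against -0.0025 over all tested genes. In 6 of the 9, and in TLR3, which was not tested, all 3 shtRF libraries lay below all 3 control libraries on the CPM scale, and 23.8% of all tested genes showed that order. MAVS, MB21D1 and TMEM173 had groups that overlapped. The genes shared at most 4.33% of their exonic bases with exons of another gene.

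**Figure D1:**
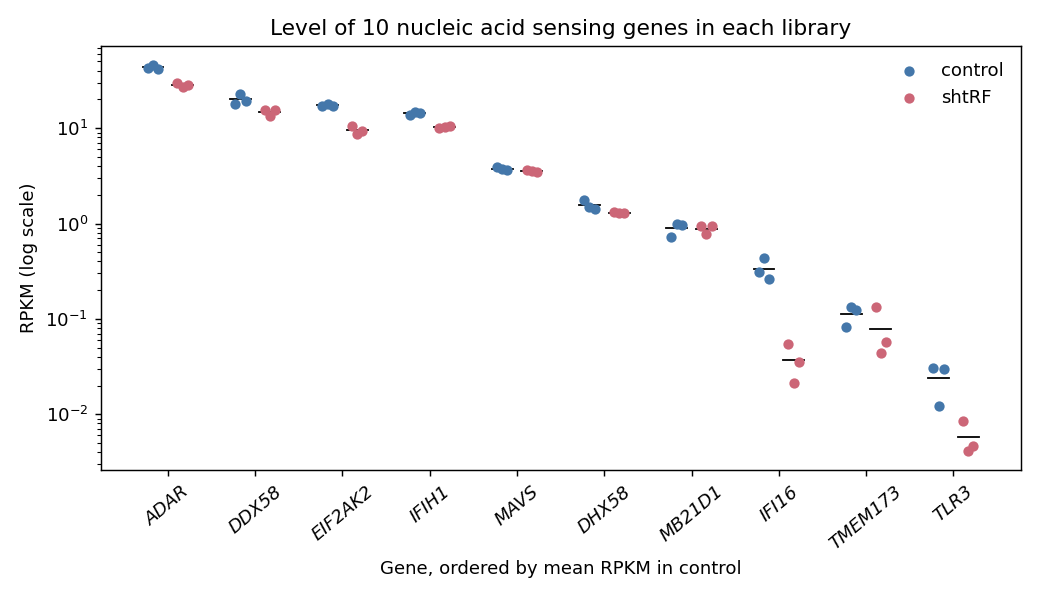
Level of each of the 10 genes in every library. The vertical axis is RPKM on a log scale, blue points are the 3 control and red points the 3 shtRF libraries, and black bars are group means. Genes run from ADAR, at 43.6 RPKM in control, down to TLR3, at 0.0242 RPKM, and the gap between the groups is widest for IFI16.

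The start regions of the genes were read because many sensor genes are known to be induced by interferon through the interferon-stimulated response element, a site to which the factor ISGF3 and the IRF family bind and whose core is GAAA, any 2 bases and GAAA again. RefSeq windows on GRCh38.p14, each from 250 bases before to 50 bases after a transcript start, were available for 7 of the 10 genes. This core was searched on both strands, as was the shorter IRF core AANNGAAA, which every longer core contains. The longer core was present in the windows of IFIH1, EIF2AK2 and TLR3, and in 3.57% of all 35116 windows of this length. The shorter one was present in 5 of the 7 genes, the former 3 with DDX58 and IFI16, and in 22.8% of all windows. Members were counted by gene, over 10 windows in all, whereas the shares are by window, so the numbers are not directly comparable. Neither occurred in the windows of MAVS or ADAR. Stretches that hold matches are given below from 5′ to 3′ on the strand of the gene. The mean CPM of these 5 genes was lower in shtRF than in control, although TLR3 was not tested. The same held for ADAR, which fell from 358 to 242 CPM, and for MAVS, which did not pass the test, both without a match. The direction of change therefore does not separate genes with a match from those without. In the first 3 stretches the capitals mark the longer core or its reverse complement, and in the last 2 they mark AANNGAAA or its reverse complement. A match of letters is not evidence that a factor binds there in these cells.
IFIH1 (chr2:162318685-162318854, minus strand): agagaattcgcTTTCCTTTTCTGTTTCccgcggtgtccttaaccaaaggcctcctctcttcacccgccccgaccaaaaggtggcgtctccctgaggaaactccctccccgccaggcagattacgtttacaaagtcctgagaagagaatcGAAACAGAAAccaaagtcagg
EIF2AK2 (chr2:37156971-37157040, minus strand): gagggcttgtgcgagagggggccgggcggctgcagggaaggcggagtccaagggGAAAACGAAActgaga
TLR3 (chr4:186069096-186069165, plus strand): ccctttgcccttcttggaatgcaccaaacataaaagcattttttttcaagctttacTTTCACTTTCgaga
DDX58 (chr9:32526317-32526406, minus strand): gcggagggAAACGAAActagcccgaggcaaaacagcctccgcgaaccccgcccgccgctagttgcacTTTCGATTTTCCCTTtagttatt
IFI16 (chr1:159009827-159009906, plus strand): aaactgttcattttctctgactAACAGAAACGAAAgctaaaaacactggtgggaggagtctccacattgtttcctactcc
Positions are counted from the transcript start, with -1 the base before it. In IFIH1 a pair of matches on the opposite strand overlapped between -159 and -144, and a further one stood at -21 to -12 on the gene's own strand. The EIF2AK2 match reached from -6 to 4 and that of TLR3 from -4 to 6, so both covered the start itself. IFI16 had 2 windows, and the stretch shown comes from the one that starts further into the gene.

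Among the RIG-I-like receptors, both signalling members fell in shtRF cells, where DDX58 fell by 23.7% and IFIH1 fell by 24.8%, and the regulatory member did not pass the test. DDX58 (chr9:32455705-32526324, minus strand), the sensor of RNA with 5′ triphosphate ends, measured 77.2, 97.0 and 83.1 CPM in control replicates 1 to 3. It measured 66.3, 60.5 and 69.7 CPM in shtRF replicates 1 to 3. Control replicate 2 stood highest, and the highest shtRF library was still below the lowest control library. The group means were 85.8 ± 10.2 and 65.5 ± 4.68 CPM (here and below the SD of 3 libraries). The log2 fold change was -0.39 with a standard error of 0.07 (95% interval -0.54 to -0.24), and edgeR's quasi-likelihood test gave an adjusted p of 1.40e-04. Values after ± beside log2 fold changes are standard errors.

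IFIH1 (chr2:162267079-162318703, minus strand), whose protein MDA5 prefers long RNA duplexes, varied less among replicates. Its control libraries held 61.0, 64.6 and 64.7 CPM. Its shtRF libraries held 45.5, 48.6 and 49.1 CPM. The groups were clearly apart, with means of 63.4 ± 2.11 and 47.7 ± 1.94 CPM. The log2 fold change was -0.41 ± 0.06 (95% interval -0.53 to -0.29; edgeR's quasi-likelihood test, adjusted p = 3.81e-06).

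DHX58 (chr17:42101404-42112733, minus strand) encodes LGP2, which binds RNA but lacks the domain that signals to MAVS. It measured 6.70, 5.52 and 5.35 CPM in control and 5.05, 5.21 and 5.05 CPM in shtRF. The groups did not overlap, but the nearest libraries differed by less than the spread among the control libraries. Its log2 fold change of -0.20 ± 0.12 (95% interval -0.44 to 0.05) gave an adjusted p of 0.202 in edgeR's quasi-likelihood test.

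MAVS (chr20:3846799-3876123, plus strand), the adaptor on which both receptors converge, had 45.7, 42.8 and 42.2 CPM in control. In shtRF it had 42.4, 43.6 and 41.8 CPM. The 6 libraries were interleaved. The log2 fold change was -0.03 ± 0.06, and the 95% interval of -0.15 to 0.09 left room for only small differences in either direction (edgeR's quasi-likelihood test, adjusted p = 0.713).

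TLR3 (chr4:186069152-186088069, plus strand) was barely present. It had 13, 6 and 16 counts in control and 4, 2 and 2 counts in shtRF, out of at least 63541413 counts in each library. The groups did not overlap, but the gene did not pass the filter and was not tested. With no filter and all libraries its adjusted p in edgeR's quasi-likelihood test was 0.136, and no call was made for TLR3. When control replicate 2, the lowest of its group, was left out, TLR3 passed the filter through its 2 remaining control libraries alone, which fixes the direction, so its value of -2.29 there (adjusted p = 0.0258) supports nothing.

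The pair of enzymes that act on double-stranded RNA, PKR and ADAR1, were the most abundant of the genes that fell by CPM, and both did so with narrow intervals. EIF2AK2 (chr2:37099210-37157065, minus strand) encodes PKR, a kinase that binds such RNA and phosphorylates eIF2α to halt translation. It measured 180.2, 189 and 182 CPM in control. In shtRF it measured 111, 98.3 and 104 CPM. No shtRF library came near the control range, and the 3 libraries of each group lay close together. The means were 184 ± 4.41 and 105 ± 6.52 CPM, 1.76-fold lower in shtRF, with a log2 fold change of -0.81 ± 0.06 (95% interval -0.93 to -0.70; edgeR's quasi-likelihood test, adjusted p = 1.27e-10).

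ADAR (chr1:154582062-154627999, minus strand) encodes the deaminase that turns adenosine into inosine in duplex RNA. Its CPM values were 354, 373 and 347 in control. They were 245, 237 and 242 in shtRF. The spread within each group was small beside the gap between them. The level fell by 32.5% in shtRF, with means of 358 ± 13.1 and 242 ± 4.05 CPM and a log2 fold change of -0.57 ± 0.05 (95% interval -0.68 to -0.46; edgeR's quasi-likelihood test, adjusted p = 1.30e-08). ADAR is transcribed from several starts that give the interferon-induced long form and the constitutive short form, and the gene counts do not separate them.

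IFI16 showed the largest fold difference of the tested members, at a low level. The gene (chr1:158999968-159055155, plus strand) encodes an interferon-inducible protein that binds DNA in the nucleus and cytosol and can act through STING. It had 106, 168 and 110 counts in control. It had 20, 8 and 12 counts in shtRF. The highest shtRF library thus held far fewer counts than the lowest control library. The shtRF libraries alone would not have passed the filter, since replicate 2 held 8 counts against its minimum of 10. IFI16 was therefore tested through its higher control libraries, which favours a fall, and the values below carry that limit. In CPM the means were 1.74 ± 0.435 and 0.198 ± 0.0842, 8.70-fold lower in shtRF, and the log2 fold change was -3.12 ± 0.33 (95% interval -3.80 to -2.44; edgeR's quasi-likelihood test, adjusted p = 9.11e-08). Counted from the lowest log2 fold change, it ranked 28 of the 19628 tested genes. On the scale of log2(RPKM + 1), which compresses changes of genes this low, the value was -0.36 (limma, adjusted p = 0.00155), and on log2(RPKM + 0.1) it was -1.66.

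The cytosolic DNA route proper, cGAS and STING, did not pass the test in either direction. MB21D1 (chr6:73413515-73452276, minus strand), the enzyme cGAS, had 2.94, 3.96 and 4.0 CPM in control and 3.89, 3.38 and 3.97 CPM in shtRF. Control replicate 1 was the lowest of all 6 libraries, and the other 5 were mixed between the groups. Its log2 fold change was 0.04 ± 0.14 (95% interval -0.26 to 0.34; edgeR's quasi-likelihood test, adjusted p = 0.861), and without control replicate 1 it became -0.10 (adjusted p = 0.663).

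TMEM173 (chr5:139475534-139482935, minus strand), which encodes STING, had few counts. It had 20, 38 and 38 counts in control and 36, 12 and 14 counts in shtRF. The libraries shtRF replicate 1 and control replicate 1 each resembled the other group. Its log2 fold change of -0.49 ± 0.44 had a 95% interval from -1.41 to 0.43 (edgeR's quasi-likelihood test, adjusted p = 0.416), so even a sizeable difference was not detectable with these libraries. Without shtRF replicate 1 the value was -1.11 with an adjusted p of 0.107.

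**Figure D2:**
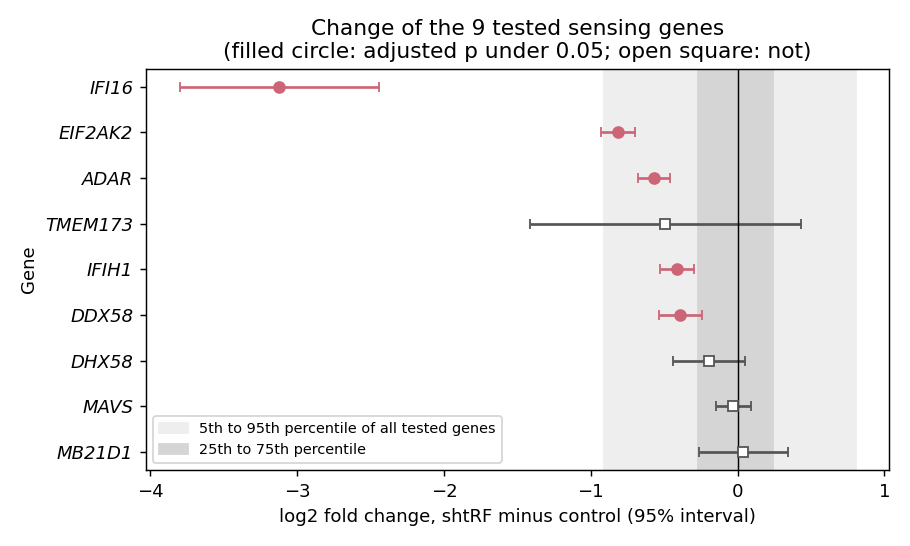
log2 fold change, shtRF minus control, of the 9 tested genes, with 95% intervals. Filled circles have an adjusted p under 0.05 and open squares do not. Grey bands span the 5th to 95th percentile (-0.91 to 0.80) and the 25th to 75th percentile (-0.27 to 0.24) of all tested genes. IFI16 lies outside both bands, and EIF2AK2, ADAR, IFIH1 and DDX58 lie to the left of the inner band, as does TMEM173, whose interval spans 0.

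Set against all tested genes, the changes of 4 of the 5 genes that fell were moderate. The log2 fold change of EIF2AK2 was at the 6.17th percentile, that of ADAR at the 11.1th, that of IFIH1 at the 16.6th and that of DDX58 at the 17.7th, while IFI16 was at the 0.143th. TMEM173, which did not pass the test, was at the 13.4th. MAVS and MB21D1 stood near the middle, at the 46.9th and 55.0th percentile. Whether the members differed from each other in their change was not tested.

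**Figure D3:**
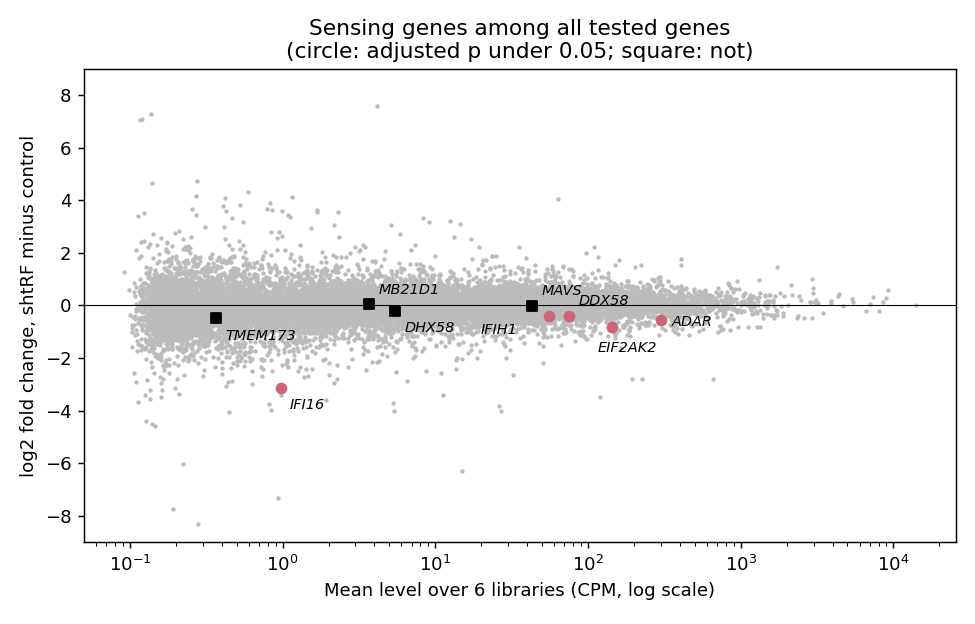
log2 fold change, shtRF minus control, against the mean CPM over 6 libraries (log scale) for all 19628 tested genes (grey) and the 9 tested members (red circles, adjusted p under 0.05; black squares, not). IFI16 lies at the low edge of the cloud at its level, and EIF2AK2 and ADAR lie on the lower side of the cloud among abundant genes.

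Compared per length, in RPKM, genes of the cytosolic RNA route had higher levels in these cells than MB21D1, TMEM173 and IFI16 of the DNA route. In control, ADAR led with 43.6 ± 1.89 RPKM, followed by DDX58 with 20.1 ± 2.49, EIF2AK2 with 17.4 ± 0.516 and IFIH1 with 14.3 ± 0.489 RPKM. MAVS had 3.77 ± 0.165 RPKM, DHX58 1.55 ± 0.196 and MB21D1 0.889 ± 0.148 RPKM. The lowest were IFI16 with 0.336 ± 0.0859, TMEM173 with 0.113 ± 0.0282 and TLR3 with 0.0242 ± 0.0104 RPKM. Each gene's lowest control library lay above the highest control library of the next gene, although DDX58 and EIF2AK2 came close, at 18.1 and 18.0 RPKM.

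In shtRF cells the order changed at 2 places. IFIH1, with 10.3 ± 0.225 RPKM, had a higher mean than EIF2AK2, with 9.55 ± 0.830 RPKM, but the libraries of the pair overlapped and their order is therefore not settled. TMEM173, with 0.0783 ± 0.0488 RPKM, had a higher mean than IFI16, with 0.0370 ± 0.0166 RPKM, and these overlapped as well. ADAR remained first with 28.4 ± 1.15 RPKM and DDX58 the second with 14.8 ± 1.24 RPKM.

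Around the sensors, 102 further genes of the pathway were listed by role, of which 85 were tested. Of these, 24 fell (28.2%) and 20 rose (23.5%), against 18.9% and 20.6% of all tested genes, and the median log2 fold change was 0.0056. The lists were chosen with earlier results of these data known, so the shares describe the lists and are not an unbiased comparison.

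Next to the adaptor MAVS and the TLR3 adaptor TICAM1 stand the scaffolds and kinases that relay the signal. Of 16 such genes, 5 rose, 3 fell and 8 did not pass the test, with a median log2 fold change of 0.13. TRAF5, a ring-finger adaptor of the TRAF family, went from 19.4, 20.6 and 20.7 CPM in control to 52.5, 52.1 and 52.8 CPM in shtRF. This was the widest separation on the list, with a log2 fold change of 1.38 and an adjusted p of 6.08e-14 in edgeR's quasi-likelihood test. RIPK1, a kinase in TLR3 and TNF signalling, rose from 86.0 ± 2.88 to 116 ± 2.96 CPM (log2 fold change 0.43), and the IKK subunits IKBKB and IKBKG rose by 0.38 and 0.29 on the log2 scale. AZI2, an adaptor of TBK1, fell by 0.38, but it shares 55.4% of its exonic bases with CMC1, so its reads cannot be assigned with certainty. TBK1 itself did not pass the test, with a log2 fold change of 0.14 and an adjusted p of 0.073.

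The transcription factors at the end of the relay went different ways. IRF3, which is present before any stimulus, rose from 100.4 ± 11.4 to 145 ± 2.33 CPM, a log2 fold change of 0.53 (edgeR's quasi-likelihood test, adjusted p = 8.00e-07), although 19.4% of its exonic bases are shared with BCL2L12. IRF7, the interferon-induced counterpart, fell from 18.7 ± 2.00 to 11.7 ± 1.87 CPM, with -0.67 on the log2 scale (adjusted p = 1.49e-05). RELA, the p65 subunit of NF-κB, rose by 0.23 on the log2 scale, and NFKB1 did not pass the test at 0.14.

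Of 19 regulators of RIG-I-like receptors, 6 fell, 4 rose and 9 did not pass the test, with a median of -0.11. TRIM25, a ubiquitin ligase that activates RIG-I, fell from 45.0 ± 1.48 to 29.7 ± 0.654 CPM (log2 fold change -0.60; edgeR's quasi-likelihood test, adjusted p = 2.83e-08). DDX60, an interferon-induced helicase, fell from 72.6 ± 5.20 to 47.3 ± 1.13 CPM (log2 fold change -0.62), and NLRC5, a regulator of MHC class I genes, fell from 3.64 to 1.89 CPM (log2 fold change -0.95). Against these, CYLD, which strips ubiquitin chains from RIG-I, rose from 27.2 ± 1.73 to 41.4 ± 0.548 CPM, with 0.61 on the log2 scale (adjusted p = 6.56e-08). RNF135, the RIG-I ligase Riplet, rose by 0.31 with an adjusted p of 0.0119, a call that was lost without control replicate 1, where the value was 0.22 (adjusted p = 0.0825), and on both log2 RPKM scales.

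Of 21 genes that act on cGAS, STING or their messenger cGAMP, 5 fell, 4 rose and 12 did not pass the test, with a median of -0.05. ENPP1, which degrades cGAMP outside the cell, fell from 31.2 ± 4.21 to 16.6 ± 0.503 CPM (log2 fold change -0.92; edgeR's quasi-likelihood test, adjusted p = 1.05e-08). INSIG1, an endoplasmic reticulum protein best known for holding back SREBP, fell from 51.6 ± 3.44 to 33.1 ± 0.810 CPM (log2 fold change -0.64). The carriers of cyclic dinucleotides went opposite ways: LRRC8A, a subunit of the volume-regulated anion channel, rose by 0.79, and SLC19A1, the folate carrier, fell by 0.79, with 14.0% of its exonic bases shared with COL18A1. STIM1, the calcium sensor that binds STING, rose by 0.49.

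Among the listed pathway genes the widest falls were in the oligoadenylate synthetases, which bind double-stranded RNA and make short signalling oligomers of adenosine. OAS2 measured 21.1, 24.4 and 21.2 CPM in control and 6.81, 4.43 and 5.61 CPM in shtRF. OAS3 measured 136, 146 and 138 CPM in control and 60.0, 55.2 and 58.9 CPM in shtRF. OAS1 measured 27.1, 28.9 and 28.8 CPM in control and 14.4, 11 and 12.5 CPM in shtRF. In each of the 3 genes the groups were far apart. Their log2 fold changes were -1.98 for OAS2, -1.27 for OAS3 and -1.16 for OAS1, with adjusted p values of 6.44e-12, 7.85e-14 and 3.08e-10 in edgeR's quasi-likelihood test. OASL, the related protein without synthetase activity, had 6.65 ± 0.599 and 6.63 ± 0.655 CPM and did not pass the test (adjusted p = 0.984).

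The rest of this list of other sensors was mixed. Of its 12 tested genes 6 fell, 2 rose and 4 did not pass the test, with a median of -0.17. DHX36, a helicase that unwinds G-quadruplexes, fell from 171 ± 2.05 to 118 ± 4.05 CPM (log2 fold change -0.54; edgeR's quasi-likelihood test, adjusted p = 2.37e-08). AIM2, TLR7, TLR8, NLRP1 and NOD2 had at most 13 counts in any library and were not tested.

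Of 13 genes that handle double-stranded RNA or act around PKR, 3 rose, 3 fell and 7 did not pass the test, with a median of 0.03. PPP1R15A, the phosphatase subunit that reverses eIF2α phosphorylation, rose from 72.4 ± 4.39 to 126 ± 9.40 CPM (log2 fold change 0.80; edgeR's quasi-likelihood test, adjusted p = 8.67e-10). DNAJC3, a co-chaperone that inhibits PKR, rose from 34.2 ± 3.09 to 49.0 ± 1.81 CPM (log2 fold change 0.52). PNPT1 and SUPV3L1, which together degrade RNA in mitochondria, fell by 0.37 and 0.38 on the log2 scale. EIF2S1, which encodes eIF2α, did not pass the test, with a log2 fold change of -0.14 and an adjusted p of 0.0559.

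**Figure D4:**
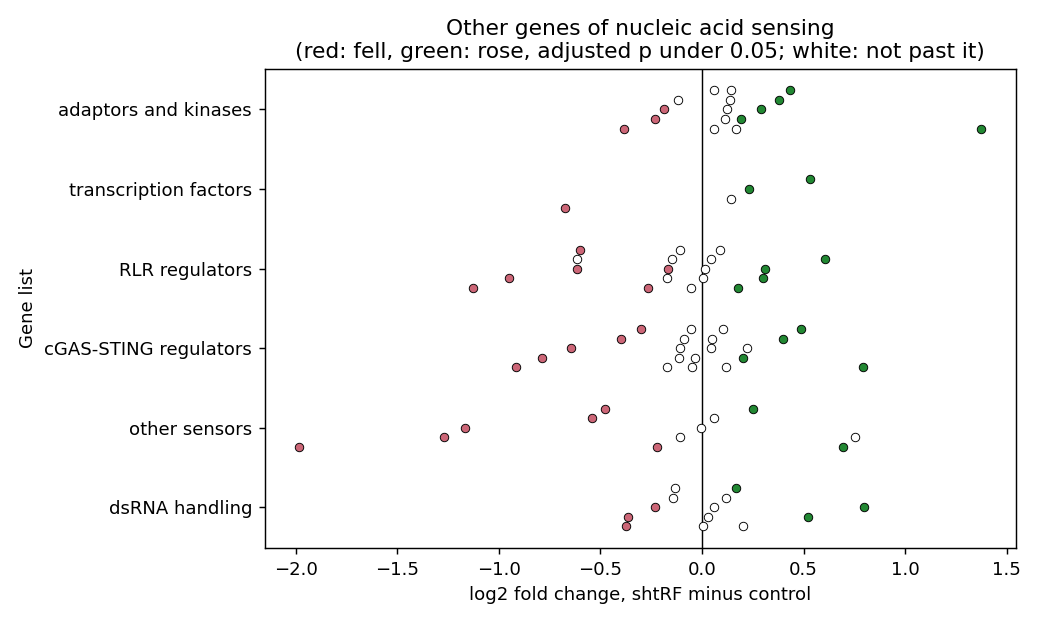
log2 fold change, shtRF minus control, of the tested pathway genes that are not members, one row for each of 6 lists (the interferon outputs, with 1 tested gene, are left out), each point 1 gene. Red points fell and green points rose at an adjusted p under 0.05, and white points did not pass it. Each row holds both red and green points, and the points farthest to the left are OAS2, OAS3 and OAS1.

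The interferons and chemokines that sensor signalling switches on were at or near 0 in both groups. Of 12 such genes 9 were in the table, and all but CCL5 had at most 14 counts in any library. IFNL1 had 0, 8 and 8 counts in control and 0, 4 and 14 in shtRF, and CXCL10, a chemokine gene that responds to interferon, had 0, 6 and 4 counts in control and 2, 0 and 0 in shtRF. CXCL11 had 0, 0 and 3 counts in control and 0, 8 and 4 in shtRF. These counts overlapped between the groups and are too small to show a difference.

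Among the rest of the outputs, the interferon genes had at most 6 counts in any library. IFNL2 had 2, 2 and 0 counts in control and 2, 4 and 0 in shtRF, and IFNL3 had between 2 and 4 counts in each library. IFNA2, IFNK and IFNW1 were at 0 in 5 of the 6 libraries each, with 2, 2 and 6 counts in the remaining one. CCL5, the single gene of this list that was tested, had 26, 33 and 36 counts in control and 28, 33 and 18 in shtRF, with a log2 fold change of -0.14 ± 0.38 (edgeR's quasi-likelihood test, adjusted p = 0.817). The number of these genes called was therefore 0 in both directions, also at an unadjusted p under 0.05. IFNB1, IFNA1 and IFNE were absent from the count table, so they could not be analysed.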

How the data were processed

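Libraries were prepared with a stranded mRNA kit and sequenced as read pairs. The authors deposited raw counts per gene with exon coordinates on GRCh38. The submitters' processing notes name Trimmomatic 0.36, featureCounts of Subread 1.5.1 and edgeR 3.12.1, while the aligner, the annotation release and the strand setting are not given in the sources used here. Among counts of 1 to 4, 74.2% to 77.1% were even, against 49.7% to 50.7% of counts of 1000 or more, so low counts may stand for fewer fragments. The authors also deposited RPKM values for part of the genes, and 100% of those of 4991 genes equalled count divided by exonic length and library total (relative tolerance 1e-05), so RPKM was recomputed for the genes used.

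Groups were taken from the sample titles. Counts were tested with edgeR 4.0.16 in R 4.3.3 (filterByExpr with a minimum count of 10, TMM, quasi-likelihood fit on group alone, all 6 libraries), with Benjamini-Hochberg adjustment over 19628 genes and a threshold of 0.05. The test was checked on simulated data. Samples of 1 group correlated at 0.997 to 0.998 in log2 CPM and differed by more than sampling noise, so none was taken for a repeat. Exon overlap was computed with bedtools 2.31.1 irrespective of strand, and promoter motifs were searched with Python 3.11.15.

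The members and gene lists were chosen with earlier results of these data known. Named genes were all members, all interferon output genes and, of each other list, up to 5 genes with the largest absolute log2 fold change among those with an adjusted p under 0.05, a mean of at least 2 CPM and groups that did not overlap. A few genes that the lists hold are counted but not reported here by name. TBK1, NFKB1, OASL, EIF2S1 and the sensors below the filter were named after their values were seen. In all, 18 alternatives were tried, with DESeq2 1.42.0 and limma 3.58.1 (limma-trend on log2 RPKM with a pseudocount of 1 or 0.1) among them, besides other scalings and filters, counts divided by 2, a limit of 10% on exon overlap, a replicate block and fits without each library.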

Additional observations from a re-analysis of the deposited data

How the results depend on the processing

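The calls of DDX58, IFIH1, EIF2AK2 and ADAR held under all 18 alternatives, and that of IFI16 under the 17 that tested it. Where IFI16 passed a filter only through its higher control libraries, as in the main fit, a held call is no support for its direction. DHX58, MAVS, MB21D1 and TMEM173 passed under none of those run. The number of members that fell was 4 to 6: it was 4 with at least 10 counts in every library, where IFI16 was not tested, and 6 without control replicate 2, where TLR3 passed the filter through its control libraries alone, so that this sixth gene is no support. MB21D1 turned to -0.0013 on log2(RPKM + 1) (limma, adjusted p = 0.991) and ranged from -0.10 to 0.12 over the fits that left out 1 library. CCL5 ranged from -0.31 to 0.035 over those fits and turned sign without shtRF replicate 3 (edgeR, adjusted p = 0.963). The median of the members ranged from -0.50 to -0.38 over the fits that left out 1 library. For these changes the cause was not tested. The log2 fold change of DDX58 ranged from -0.47 to -0.30 over those fits, nearest to 0 without control replicate 2. Of 518 values of the other named genes, 514 kept direction and call, and the rest were those of RNF135 and CCL5. On the 2 log2 RPKM scales RNF135 had 0.20 and 0.26 (limma, adjusted p = 0.0962 and 0.0892).

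Over all genes, upper quartile scaling gave 4174 lower and 3508 higher against 3704 and 4046 with TMM, and log2(RPKM + 1) gave 3803 and 2900. Libraries with the same replicate number correlated by 0.0174 to 0.0592 in their deviations from the group means, so the numbers were not taken to pair them. With the replicate block 5 members fell, DDX58 had -0.39 (edgeR, adjusted p = 3.42e-05), and no call of a member changed. TLR3, TMEM173 and the interferon genes had few counts, which widens the error of their values.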
